A study of Mus musculus with 2 samples.

Results

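ATF4 is the transcription factor at the end of the integrated stress response. Kinases that sense unfolded protein, missing amino acids, viral RNA or lack of heme phosphorylate the initiation factor eIF2, most translation slows, and the Atf4 transcript is translated better, so that Atf4 mRNA is only a partial guide to the protein. ATF4 pairs with C/EBP-type leucine zipper proteins and switches on genes for amino acid uptake and synthesis, for serine, glycine and mitochondrial folate metabolism, and for feedback on the response itself. The genes described here are 31 listed members of this programme, the stress factors and the enzymes of serine, glycine, asparagine, proline and cysteine supply. They were chosen by gene symbol or synonym in the annotation of the array, with the brightest probe standing for each gene, and with earlier results of the same data known. Of the 31, 30 were matched to a probe, out of 16444 named genes on the array, and each of the 30 has exactly 1 probe. Phgdh, the first enzyme of serine synthesis, was not matched and is not analysed here. All 30 matched members were above background on both arrays, as were 13753 named genes in all.

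Total RNA came from Flk-1-positive early mesodermal cells, obtained from mouse embryonic stem cells (ESCs) grown on OP9 stromal cells and sorted with an antibody to Flk-1, the protein that the gene Kdr encodes. In the gene-trapped sample AU019823 was disrupted on both alleles, and the comparison sample came from revertant ESCs, given in the labels as almost the same as wild-type. Each group is 1 sample on 1 array, from 350000 revertant and 300000 gene-trapped cells at day 4.5, and the samples carry different codes of unstated meaning, so that clone, culture, array and genotype cannot be told apart. Every difference below therefore compares 2 arrays, has no replicate check and carries no p-value. Spot signals are the linear median brightness of a spot before any correction and are given with the revertant value first. Log2 differences are gene-trapped minus revertant after a background model (normexp, with an offset of 50 added) and quantile normalization, and the folds are those of the normalized values. The offset makes the differences of dim genes smaller. Above background means more than 2 SD over the mean of the blank spots on both arrays, and each value was recomputed in 10 other settings (scaling, background, filters, the authors' deposited table), 11 in all. Since each member has 1 probe, the 2 filters and the mean of a gene's probes cannot change a member's value, though a filter can drop it. Counts of settings for a member include these, and only the scalings, the background corrections and the authors' table could differ.

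The median spot signal of all probes was 47.5 in revertant cells, against 38.6 in gene-trapped cells, a gap that normalization removes from the differences. AU019823 had a log2 difference of -0.39, but the position of its probe relative to the trap is not given in the sources used here, so the value does not check the labels. Of 10 early mesoderm markers all were above background on both arrays, with a median log2 difference of 0.23. Kdr was 1.57-fold lower in gene-trapped cells, whereas Mixl1 (1.99) and Etv2 (1.30) were at least 2-fold higher. Of the markers of other cell types, the pluripotency genes Tdgf1 (1.88) and Dppa5 (1.21) and the neuroectoderm gene Otx2 (1.29) were also at least 2-fold higher. With the brightness around each spot (the local background) subtracted Dppa5 came to -0.079, Otx2 to 0.78 and Kdr to -2.04. Mixl1, Etv2 and Tdgf1 stayed at least 2-fold higher there. The 7 pluripotency markers above background had a median of 0.073 and 1 below 0, Klf4 at -0.36. The 3 neuroectoderm markers above background had a median of 0.37 and 1 below 0, Tubb3 at -0.42. Of 5 blood and macrophage and 4 endoderm markers above background 0 passed 2-fold, with medians of -0.21 and 0.015. Of 14 OP9 stromal and fibroblast markers above background, 4 were at least 2-fold lower and 0 higher in gene-trapped cells. The shares over all named genes above background were 1.08% and 0.334%. The 4 were the collagen genes Col5a1 (-1.61) and Col1a1 (-1.49), the adipocyte hormone gene Adipoq (-1.37) and the smooth muscle actin gene Acta2 (-1.30), singled out after their values were seen. The median of the 14 was -0.32, with 10 below 0. The summed spot signal of the 16 matched markers was 6412 for revertant and 2281 for gene-trapped cells, or 6291 and 3019 after normalization. Acta2 alone had spot signals of 3603 and 1195. The stromal genes Dcn and Prrx1 were not well above background on both arrays. The part of stromal RNA in the differences below was not tested, and fewer cells of a type cannot be told apart from less RNA per cell.

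The DNA element that ATF4 and its C/EBP partners bind, the amino acid response element, has the core TGATGNAA, where N is any base. This core was searched on both strands of the RefSeq promoter windows of assembly GRCm38.p6, from 250 bases before to 50 bases after a gene's start. Some genes have more than 1 window and so more chances of a match. Among the members Jdp2 has 3, and Atf5, Psat1, Vldlr and Bcat1 have 2 each. Of 31 members 29 have a window, and 9 of these (31.0%) hold the core, against 1219 of 27025 genes (4.51%) in the whole table. The form of the core with C at the open base, TGATGCAA, was found in 7 members (24.1%) and in 279 genes (1.03%) of the table. Many members are on the list because they are known ATF4 targets, so this share describes the list and is not a result of the arrays. The stretches that hold the core before the start are printed because several of the genes with marked differences carry the same letters, each 5′ to 3′ on the strand that reads the core, with the core in capitals. Positions are from GRCm38.p6.

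Atf3: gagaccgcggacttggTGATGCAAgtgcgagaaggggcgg
Chac1: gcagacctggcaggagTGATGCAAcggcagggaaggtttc
Asns: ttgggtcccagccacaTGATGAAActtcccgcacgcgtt
Nupr1: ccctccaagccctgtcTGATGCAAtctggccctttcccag
Pycr1: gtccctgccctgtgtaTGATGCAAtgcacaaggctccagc
Jdp2: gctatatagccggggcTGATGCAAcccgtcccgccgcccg
Vldlr: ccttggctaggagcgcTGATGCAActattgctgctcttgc
Got1: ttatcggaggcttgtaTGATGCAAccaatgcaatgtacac

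These stretches lie at chr1:191183420-191183459 (plus strand) for Atf3, chr2:119351033-119351072 (minus) for Chac1, chr6:7693210-7693248 (minus) for Asns and chr7:126625557-126625596 (plus) for Nupr1. Those of Pycr1, Jdp2, Vldlr and Got1 lie at chr11:120643828-120643867 (minus), chr12:85599367-85599406 (plus), chr19:27216804-27216843 (minus) and chr19:43524684-43524723 (plus). Counted from the start in the window that holds the match, it begins at position -23 in Asns and -33 in Jdp2, close to the start. In Chac1 the match begins at -193 and in Vldlr at -200. In Trib3 the window holds the core 15 to 22 bases after the start, and Cth and Eif4ebp1 have no entry in the promoter table. A match is a description of letters, not of a bound site, and the absence of a match in this window says nothing of sites elsewhere in the gene.

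As a group the members were lower in gene-trapped cells. Of the 30 measured, 15 were at least 2-fold lower and 0 at least 2-fold higher, whereas 1.08% of all named genes above background were at least 2-fold lower and 0.334% at least 2-fold higher. The median log2 difference was -0.997 over the members and 0.0079 over all named genes, and 26 of 30 members against 6406 of 13753 genes lay below 0. Among the 100 named genes with the lowest differences 12 were members, and among the lowest 200 there were 17. Since the members were proposed with results of this same comparison in view, these counts describe them and support nothing further. Just inside the 2-fold line stood Vldlr (2.05-fold lower) and Bcat1 (2.04-fold), and just outside it Psat1 (1.95-fold) and Atf5 (1.93-fold).

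**Figure D1:**
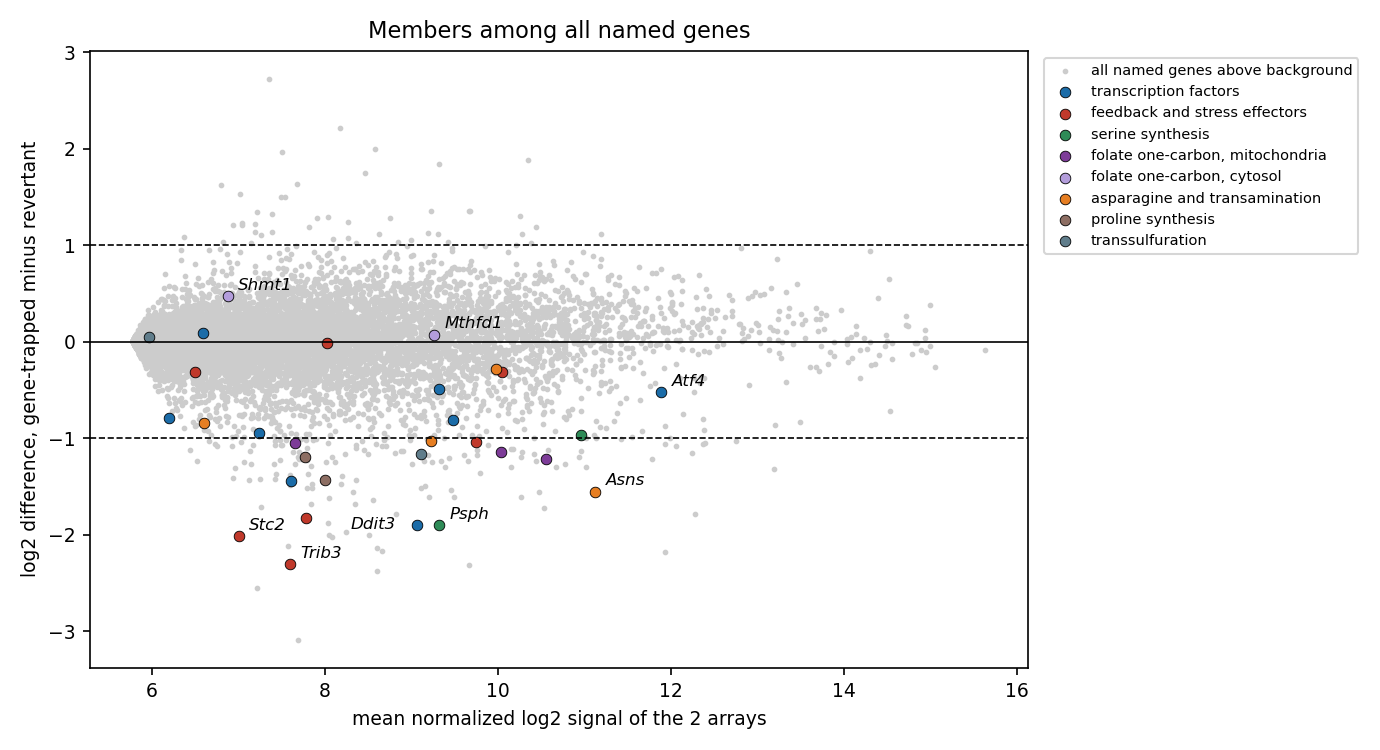
Log2 difference (gene-trapped minus revertant) against mean normalized log2 signal of the 2 arrays for the 13753 named genes above background (grey) and the 30 members (coloured by role), with dashed lines at 2-fold. The members sit mostly below 0, from Trib3 at -2.31 to Shmt1 at 0.48.

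The transcription factors differed widely in size. Ddit3, the stress factor CHOP and a partner of ATF4, had a spot signal of 1094 in revertant cells, against 219 in gene-trapped cells (probe M400000828), a log2 difference of -1.90 or 3.72-fold lower, and ranked 16th lowest among all named genes. Jdp2, a leucine zipper repressor of AP-1 sites listed in the annotation under its older name Jundm2, had signals of 325 and 76.8 (probe M200008541) and was 2.72-fold lower. These were the 2 factors past 2-fold of the 8 measured. Atf4 itself had signals of 5017 and 2817 (probe M200000224), in the same order of revertant and gene-trapped, and its log2 difference was -0.52, 1.44-fold lower. Atf3, an early stress factor that can repress, had 791 and 460 (log2 difference -0.49).

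Atf5, the closest relative of Atf4, had signals of 203 and 67.9 and a log2 difference of -0.95, short of 2-fold. Atf5 passed 2-fold with the smaller offset of 16 (-1.24), with no background correction (-1.21), with scaling to the array median (-1.08) and in the authors' deposited table (-1.54). Nupr1, a small chromatin protein induced by stress, also had a wider difference in that table. Its signal was 73.7 in revertant cells and 23.0 in gene-trapped cells, the latter barely above the background limit of 22.3, so its log2 difference of -0.79 became -3.77 in the authors' deposited table and its size is uncertain. The C/EBP partners of ATF4 split: Cebpb had 999.9 and 463 (log2 difference -0.81), and Cebpg, dim on both arrays, 69.6 and 60.3 (0.09). In none of the 11 settings did Cebpb, Atf4, Atf3 or Cebpg pass 2-fold.

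**Figure D2:**
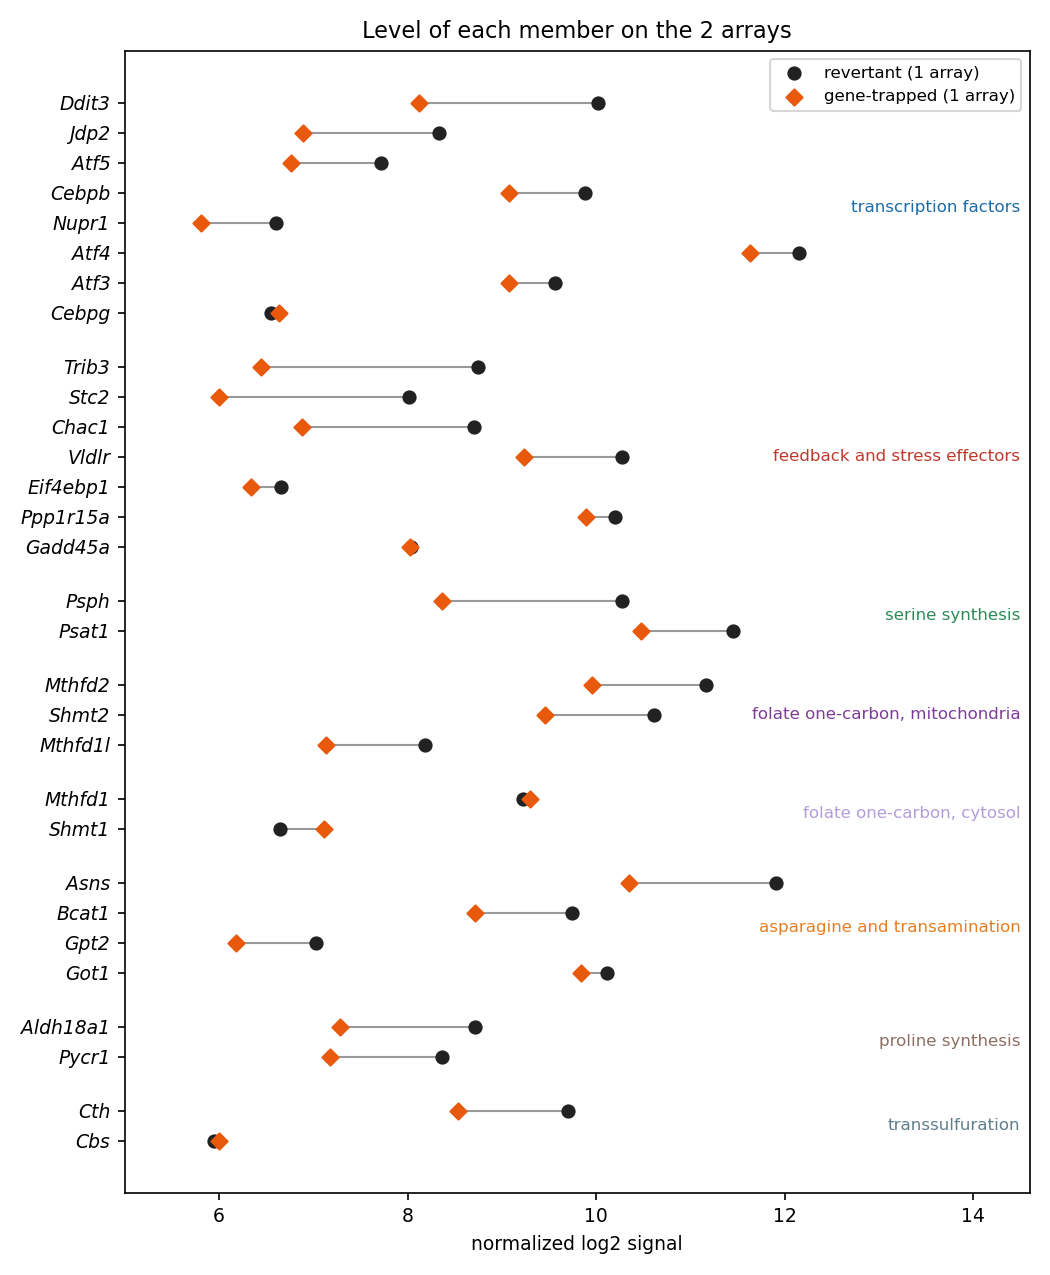
Normalized log2 signal (horizontal axis) of the 30 members on the revertant array (black circles) and the gene-trapped array (orange diamonds), 1 array each, grouped by role. Most diamonds lie left of their circle, while those of Cebpg, Mthfd1 and Cbs lie to the right by at most 0.09 and that of Shmt1 by 0.48.

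The effectors held the largest differences of the list. Trib3, a pseudokinase that binds ATF4 and dampens it, had signals of 440 and 49.5 (probe M300008400), a log2 difference of -2.31 or 4.94-fold lower, the fifth lowest of all named genes. Stc2, a secreted stress glycoprotein, had 257 and 29.6 (probe M300002124) and was 4.05-fold lower. Chac1, which breaks down glutathione, had 428 and 75.6 (probe M200007706) and was 3.55-fold lower. All 3 had low signals in gene-trapped cells, where the offset matters most: in the authors' deposited table, which has no offset, Trib3 was 10.9-fold, Stc2 18.9-fold and Chac1 5.63-fold lower. With the local background subtracted Stc2 was short of 2-fold at -0.90. Vldlr, a receptor for lipoproteins and reelin, had 1313 and 524 and a log2 difference of -1.04, which came to -0.85 with the local background subtracted, -0.98 in the authors' deposited table and -0.997 with scaling to the 75th percentile.

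The other effectors of the same response had smaller differences. Ppp1r15a, known as GADD34, brings a phosphatase to eIF2 and so ends the response. It is annotated as Myd116 and had signals of 1240 and 840, a log2 difference of -0.31. Eif4ebp1, which holds the cap-binding factor eIF4E, had 78.2 and 44.6 (-0.32), and Gadd45a, a growth arrest gene that is also a p53 target, had 263 and 202 (-0.02). In all, 4 of 7 effectors were at least 2-fold lower and none of the other 3 passed 2-fold in any of the 11 settings.

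In serine synthesis both measured enzymes were lower. Psph, the phosphatase of the last step, had signals of 1309 and 267 (probe M300006683), a log2 difference of -1.90 or 3.73-fold lower, and ranked 15th lowest. Psat1, the aminotransferase of the step before, had 3081 and 1295 (probe M200006720) and was 1.95-fold lower. Its value was -1.09 with scaling to the array median, but turned to 2.10 with the local background subtracted. On the revertant array that background, 3275, exceeded the spot signal itself, so that the subtraction leaves no signal to measure.

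In folate metabolism the 3 mitochondrial members were at least 2-fold lower and the 2 cytosolic members were not. Of 18 other folate and glycine cleavage genes, described further below, 0 were at least 2-fold apart. Shmt2, which makes glycine from serine in mitochondria, had signals of 1670 and 620 (probe M200006712) and was 2.21-fold lower. Mthfd2, the mitochondrial dehydrogenase and cyclohydrolase, had 2494 and 879 (probe M200000162) and was 2.32-fold lower, and Mthfd1l, which releases formate from the same pathway, had 291 and 95.2 (probe M400002422) and was 2.07-fold lower. Their log2 differences lay between -1.21 and -1.05, and all 3 were at least 2-fold lower in all 11 settings. The cytosolic members had values near or above 0. Shmt1, the cytosolic counterpart of Shmt2, had 76.8 and 94.0 (probe M400000393), a log2 difference of 0.48, and Mthfd1, the trifunctional cytosolic enzyme, had 620 and 549.7 (probe M200006546), a log2 difference of 0.07. Over the 11 settings Shmt1 ran from 0.27 to 0.82 and Mthfd1 from -0.022 to 0.44. Shmt1 was dim on both arrays, so that the offset leaves little room for a lower value. With 1 array per group the difference between these mitochondrial and cytosolic members was not tested.

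Asns, the asparagine synthetase and a standard reporter of amino acid shortage, had signals of 4242 and 1172 (probe M200001121), a log2 difference of -1.55 or 2.93-fold lower. With the local background subtracted this came to -0.017, since the background column at its spot read 3912 in the revertant and 797.5 in the gene-trapped sample. The transaminases were spread out. Bcat1, the cytosolic transaminase of branched-chain amino acids, had 897.5 and 352 and was 2.04-fold lower, but was short of 2-fold with scaling to the 75th percentile (-0.996) and with the local background subtracted (-0.41). Gpt2, the mitochondrial alanine transaminase, had 112 and 37.1 (log2 difference -0.85), which passed 2-fold with an offset of 16 (-1.32), with no background correction (-1.27) and in the authors' deposited table (-2.02). Got1, the cytosolic aspartate transaminase, had 1174 and 811 (-0.28), which turned to 0.31 with the local background subtracted.

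Both measured enzymes of proline synthesis were lower. Aldh18a1, which starts proline and ornithine synthesis from glutamate in mitochondria, had signals of 430.5 and 109 (probe M200006634) and was 2.69-fold lower. Pycr1, the mitochondrial reductase of the last step, had 333 and 99.0 (probe M200007392) and was 2.28-fold lower. Both were at least 2-fold lower in all 11 settings. In transsulfuration, which turns homocysteine into cysteine, the enzymes differed. Cth, which releases cysteine, had 870 and 306 (probe M200005934) and was 2.24-fold lower, again in all 11 settings. Cbs, the enzyme before it, was dim on both arrays at 32.9 and 29.7, with a log2 difference of 0.05.

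**Figure D3:**
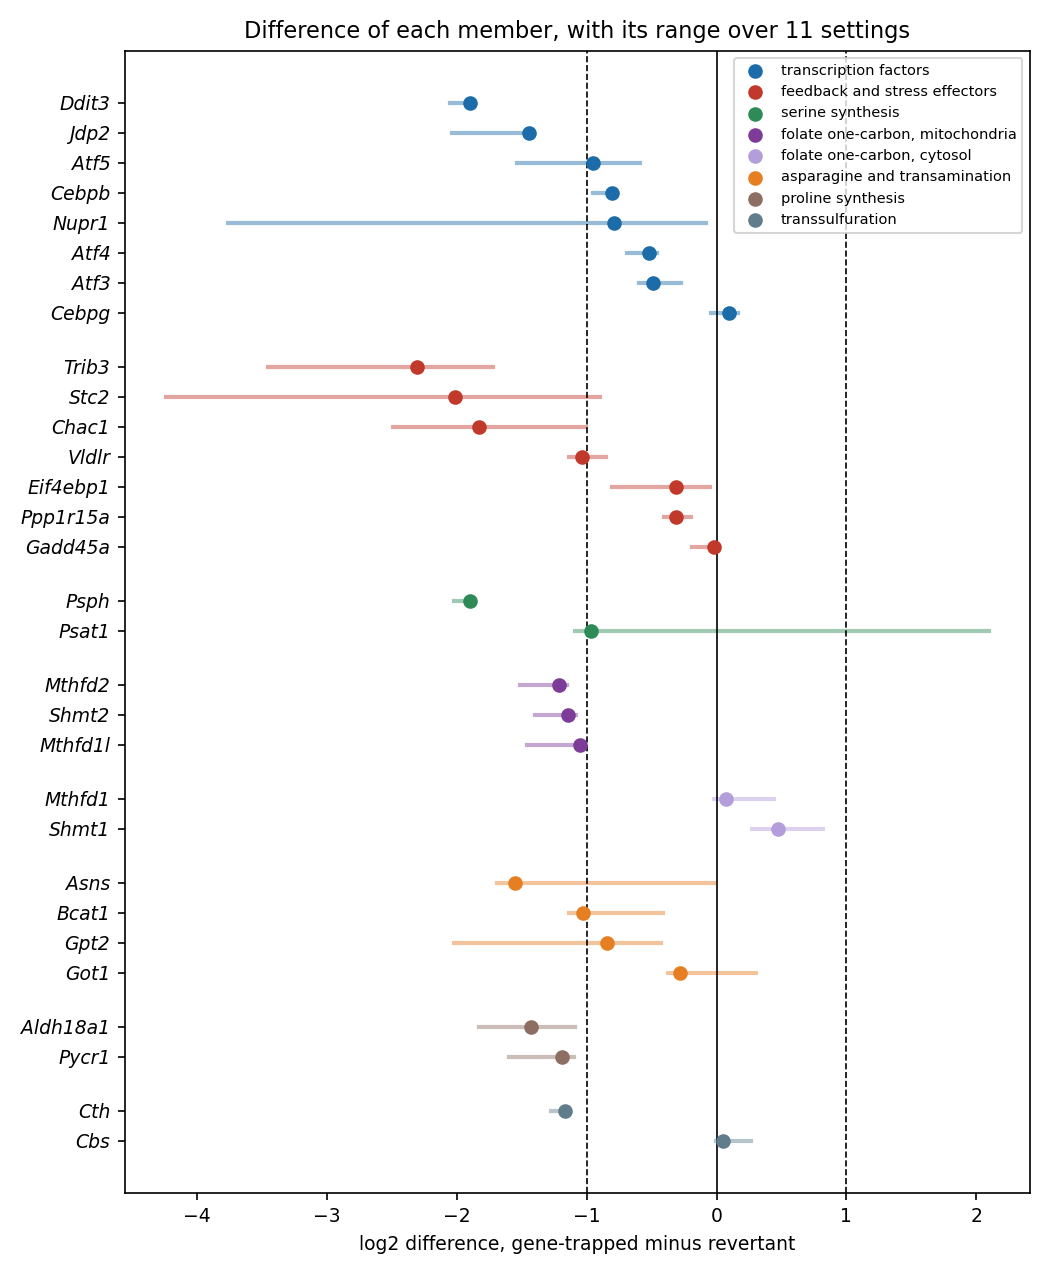
Log2 difference of each member in the main setting (points) with its lowest and highest value over 11 settings (lines; 10 settings for Nupr1), grouped by role, with dashed lines at 2-fold. Ddit3, Psph, Cth and the mitochondrial folate enzymes keep short lines left of -1, while Nupr1, Stc2 and Psat1 have long ones.

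Over the 28 measured members with a promoter window, the 9 with the core had a median log2 difference of -1.19, with 6 at least 2-fold lower. The 19 without it had a median of -0.95, with 8 at least 2-fold lower. Members with the core ran from Trib3 at -2.31 to Got1 at -0.28, and members without it ran from Stc2 at -2.02 to Shmt1 at 0.48. Ddit3 and Psph had no match in this window and were among the members with the lowest differences.

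Beside the counts of the 6 lists that follow, 1.08% of all named genes above background were at least 2-fold lower and 0.334% higher. With the local background subtracted these shares were 1.35% and 2.04%. The machinery upstream of ATF4 was described with a list of eIF2 kinases, eIF2 and eIF2B subunits and phosphatase parts. Of 16 members above background 1 was at least 2-fold lower and 0 higher, and the median was 0.060. That 1 was Dnajc3, an endoplasmic reticulum co-chaperone also known to inhibit eIF2 kinases, at -1.03 (signals 509 and 186). The kinase of the unfolded protein response, Eif2ak3, had -0.43, the kinase that senses uncharged tRNA, Eif2ak4, -0.41, and the eIF2B subunit gene Eif2b1 0.41. The median turned to -0.032 with scaling to the array median. With the local background subtracted Dnajc3 came to -0.51, short of 2-fold, and the eIF2B subunit gene Eif2b5 to 1.48 from 0.037.

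Leucine zipper relatives and possible partners of ATF4 had a median of 0.012 over 17 genes, with 1 at least 2-fold lower and 0 higher, and the median lay below 0 with scaling to the array median (-0.054), cyclic loess (-0.010) and the local background subtracted (-0.071). The lower gene was Xbp1, the factor of the parallel unfolded protein branch, with signals of 992 and 265 and a log2 difference of -1.52. Atf6, the third sensor of that response, had -0.35, whereas Maff and Nfe2l2, a small Maf protein and the factor of the oxidative stress response, had 0.53 and 0.50. Nfe2l2 turned to -0.52 with the local background subtracted, and Maff came to 0.96.

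Other genes known as ATF4 targets were lower for the most part. Of 26 above background 8 were at least 2-fold lower and 0 higher, 24 lay below 0, and the median was -0.71. Some of the 24 were dim and close to 0, such as Fgf21 (spot signals 27.9 and 24.2, log2 difference -0.0002) and Slc7a1 (27.1 and 22.3, -0.04). The lowest were the cationic amino acid transporter Slc7a3 at -3.09, Herpud1 at -2.17, the neutral amino acid transporter Slc1a4 at -2.12 and the oxidase Ero1l, which was 4.00-fold lower. The remaining 4, singled out after their values were seen, were Pck2, the mitochondrial carboxykinase (4.00-fold lower), the glycine transporter Slc6a9 at -1.52, the glutamine transporter Slc1a5 at -1.45 and the asparaginyl-tRNA synthetase Nars at -1.14. With the local background subtracted, Slc6a9 (-1.61) and Pck2 (-1.30) of these 8 were still at least 2-fold lower and the tRNA synthetase genes Gars (-1.32) and Wars (-2.15) became so. The calls of the other 6 were lost in that setting, with Slc7a3 and Nars at 0.11, Ero1l at -0.31, Herpud1 and Slc1a5 at -0.90 and Slc1a4 at -0.94. The size of the Slc7a3 difference is uncertain, since its spot signals were 622 and 35.45, dim in gene-trapped cells. In the authors' deposited table Slc7a3 was 30.1-fold lower. Many of the targets in this list answer to other stress factors too.

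Few other genes of folate and amino acid metabolism lay far from 0. Of 18 other folate and glycine cleavage genes 0 were at least 2-fold apart, with a median of 0.089. The glycine cleavage protein gene Gcsh had 0.70, thymidylate synthase gene Tyms 0.69, Atic 0.33 and Dld 0.30. Of 17 other genes of amino acid synthesis, proline breakdown and transamination 0 were at least 2-fold apart, with a median of 0.016 that turned to -0.045 with scaling to the array median. With the local background subtracted 1 of them, the mitochondrial aspartate transaminase gene Got2, was at least 2-fold higher (1.12, against -0.03 in the main setting). Odc1, the first enzyme of polyamine synthesis, had 0.75, glutamine synthetase gene Glul 0.60, Asl -0.37 and Ccbl2 0.23. Both lists hold the same kinds of enzyme as the members, but whether the lists differ was not tested. Some genes of both lists were so dim that the offset leaves no room for a 2-fold lower value. Examples are Sardh (spot signals 26.1 and 23.5) and Aadat (42.2 and 37.7). In the authors' deposited table, which has no offset, 0 genes of either list were at least 2-fold apart, with medians of 0.26 and 0.12.

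In the methionine cycle and the path from cysteine to glutathione, 2 of 13 genes were at least 2-fold higher and 0 lower, with a median of -0.027 (0.031 in the authors' deposited table). Mat2a, which makes S-adenosylmethionine, had signals of 973 and 1888 and a log2 difference of 1.19. Mtap, which salvages methionine from the by-product of polyamine synthesis, had 360 and 649 and 1.05. The glutathione synthetase gene Gss had 0.45 and A030007L17Rik, the older name of Ggct, 0.49. A030007L17Rik turned to -0.61 with the local background subtracted. With scaling to the array median Mat2a was still counted and Mtap was not (0.94).

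**Figure D4:**
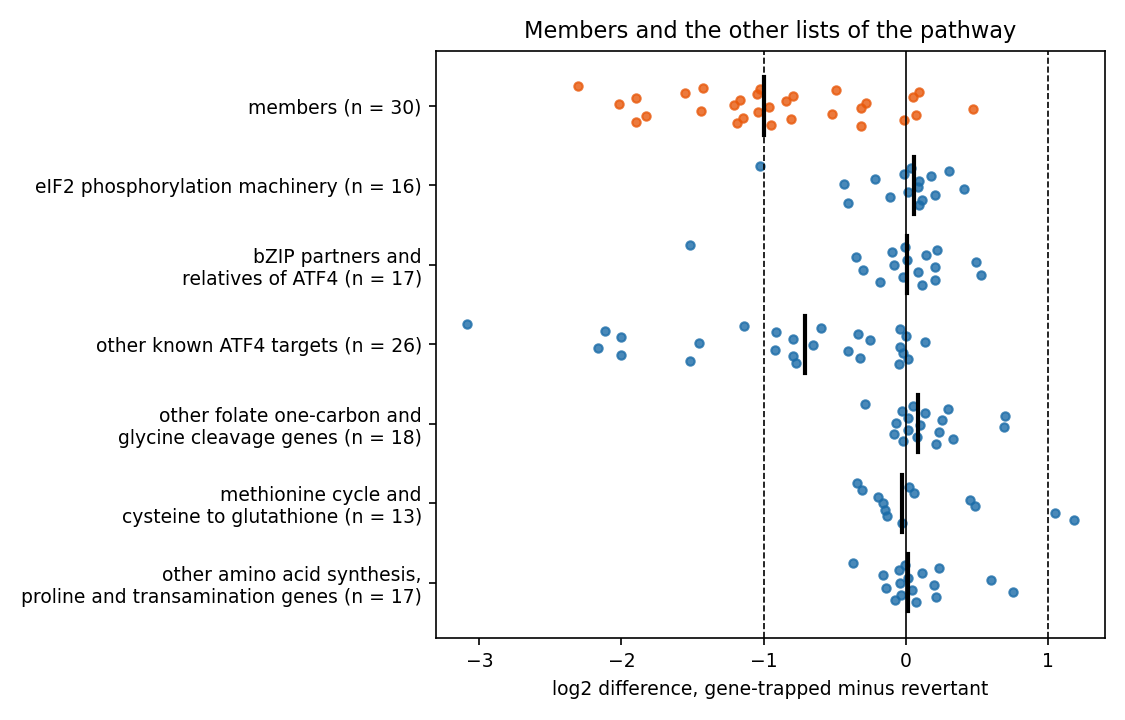
Log2 difference of every gene above background in the member list (orange, n = 30) and in the 6 other pathway lists (blue), with a bar at each median and dashed lines at 2-fold. The medians of the members (-0.997) and of the other known ATF4 targets (-0.71) lie well left of 0, and those of the other 5 lists lie between -0.027 and 0.089.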

How the data were processed

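RNA from 2 samples was amplified, coupled to Cy5 and hybridised to 1 TORAY array each, per the labels' protocols. Per the file headers, the deposited values are linear spot median intensities, read at 3 gains and joined by least squares. For build, scanner and software the entry is "not given in the sources used here". A table of processed intensities, deposited by the authors too, follows the spot signal less 22.4 (revertant) or 20.1 (gene-trapped), divided by 1.52 or 1.17, with a median of 25.0 in each column.

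Signals were corrected with normexp (offset 50) and quantile-normalized with limma 3.58.1 in R 4.3.3, and differences are on the log2 scale. Above background means a signal more than 2 SD over the mean of 2736 blank spots on both arrays, and genes were called lower or higher at 2-fold. Tables and figures used Python 3.11.15, numpy 2.4.6, pandas 2.3.3 and matplotlib 3.10.9. Of 23471 probes, 16629 have a symbol and 6842 have none, and names are those of the annotation. The background correction and quantile normalization were run on a simulated pair of arrays with known changes. Only probes well above the blank spots carried these changes, so the simulation says nothing of dim genes.

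All members are accounted for, and up to 4 genes with the largest absolute difference are named per pathway list, besides AU019823 and Kdr. Pathway and marker genes named beyond these were chosen after their values were seen. Members and lists were chosen with earlier results of these data known. The 10 alternatives are 3 scalings, 3 background corrections, 2 filters, the mean of a gene's probes and the authors' table. Positive controls of 24 spots a kind gave an SD of log2 differences of up to 0.109, which is technical.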

Additional observations from a re-analysis of the deposited data

Results flagged for a closer look

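The column of local background, left out of the main setting, held signal at the members' spots above its level at blank spots. Its median over the 30 members was 274.5 for revertant and 62.8 for gene-trapped cells. Blank spots had medians of 14.2 and 15.6, and all 30 members exceeded the blank level by more than 2 SD on both arrays. As a share of the spot signal its median was 55.0% for revertant and 41.2% for gene-trapped cells, so subtraction takes more from the former. What this column measures at bright spots was not tested.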

How the results depend on the processing

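No paired analysis was possible because there is only 1 sample in either group. The number of members at least 2-fold lower was 11 after subtraction of the local background, beside 1.35% of all named genes. It was between 13 and 18 in the other settings, where the share of all named genes ran from 0.900% to 4.02%. The number at least 2-fold higher was 0 in every setting except subtraction of the local background, where it was 1, Psat1, which turned to 2.10 there. In that setting 2.04% of all named genes were at least 2-fold higher. The members' median was -1.11 with scaling to the array median, -1.21 with offset 16, -1.12 in the authors' table, -1.20 with no background correction and -0.63 after subtraction of the local background. Scaling to the 75th percentile moved the median of all genes to 0.15. Over all named genes, 238 were lower and 87 higher with offset 16, 226 and 84 with no background correction, and 571 and 285 in the authors' table, and 280 were higher after local background subtraction. A smaller offset widens folds of dim genes by construction, and otherwise the cause was not tested. Members limited by low signal are Nupr1, Cbs, Stc2, Gpt2, Eif4ebp1, Trib3, Shmt1 and Cebpg.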

Other observations

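The core TGATGNAA was also counted outside the members. Of 91 named genes that were at least 2-fold lower, were no members and have a promoter window, 9 (9.89%) held it, against 261 of 8370 (3.12%) measured named genes above background with a window. For TGATGCAA the shares were 4 of 91 (4.40%) and 67 of 8370 (0.801%). Known ATF4 targets that are no members, such as Slc7a3 and Pck2, were among the genes at least 2-fold lower. How many of them are in the 91 was not counted. The count of the core was chosen after results had been seen and carries no test.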
